A study of Mus musculus with 7 samples.

Results

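The C/EBP and EBF transcription factors that drive fat cell differentiation, together with STAT5 and Zfp423, were measured in the brown fat of newborn mice labelled as knocked out for the glycerol kinase gene Gyk and in wild type. The set holds 10 genes: Cebpa, Cebpb, Cebpd, Cebpg, Ebf1, Ebf2, Ebf3, Stat5a, Stat5b and Zfp423. All probe sets that the array annotation pairs with these genes were taken, which gave 24 of 45037 probe sets on the array. All 24 passed the filter on low signal, and 27022 probe sets in all did so.

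The KO group was 4 male C57BL/6J mouse samples at day 3 of age, knocked out for Gyk (replicates 1 to 4). The wild-type group was 3 male C57BL/6J samples of the same age (replicates 1, 3 and 4), which the series design names as the control. Brown fat total RNA of each sample was hybridised to 1 array, and the values are signal intensities in linear units. The kind of knockout allele, and whether a sample is 1 animal, are not stated in the sources. The level of Gyk itself is not analysed here, and genotype is taken from the labels alone.

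Fat cells form through a relay of transcription factors. C/EBPβ and C/EBPδ are switched on first by hormonal signals, among them glucocorticoids, and they induce C/EBPα and the nuclear receptor PPARγ, which then hold each other on and activate the genes of the mature fat cell. EBF1 and EBF2 mark and prime the fat cell lineage, EBF2 with a particular role in brown fat, while STAT5 carries signals of growth hormone and prolactin and Zfp423 commits precursor cells.

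The array labelled KO replicate 2 had its highest correlation (0.975) with wild-type replicate 1, and on the first principal component it scored 13.8, while the other KO arrays scored -35.7 to -33.4 and the wild-type arrays 23 to 33.3. It also read 893 for Xist, the RNA that silences an X chromosome in female cells, on a probe set that read at most 13.1 on every other array, although it is labelled male. The accession numbers of the arrays fall into 2 separate runs, called runs of deposit here, the first with KO replicates 1 and 2 and wild-type replicate 1 and the second with the other 4 arrays, and the second principal component separated these runs. Array medians lay between 131.5 and 154. The fat cell genes Ucp1, Cidea, Cox8b and Adipoq were among the brightest of the array, the lowest of their readings being 21188.8 in KO and 21404 in wild type (both of Adipoq).

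Cebpd, which encodes C/EBPδ, was the member with the largest difference. Its brighter probe set, 1423233_at, read 2269, 1274, 1217.4 and 1862 in KO replicates 1 to 4, against 618.6, 661.7 and 581.4 in wild-type replicates 1, 3 and 4. All KO arrays lay above all wild-type arrays, the array labelled KO replicate 2 among them, and the KO arrays were spread more widely. The signal averaged 1656 ± 502 in KO and 620.6 ± 40.2 in wild type (SD, n = 4 and 3). The log2 difference, KO minus wild type of log2(signal + 30.6), was 1.33 ± 0.20 (SE), a 2.51-fold rise on this scale that passed the threshold of 0.05 (adjusted p = 0.0217, limma, adjusted over all tested probe sets). In whole tissue a change in the number of cells of a type and a change in RNA per cell cannot be told apart.

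The dimmer Cebpd probe set, 1456605_at, read 515.1, 316.1, 270.5 and 332.5 in KO and 242.5, 214.8 and 125.7 in wild type. Again the groups did not overlap, but the difference of 0.79 ± 0.25 did not pass (adjusted p = 0.14). Within the first run of deposit the brighter probe set read 2269 and 1274 in KO against 618.6 in wild type, and within the second run 1217.4 and 1862 in KO against 661.7 and 581.4 in wild type. The rise of 1423233_at passed with the run as a covariate (1.31, adjusted p = 0.0238), within the second run alone (1.24, adjusted p = 0.0303), with KO replicate 1 left out (1.16, adjusted p = 0.0399) and with the array labelled KO replicate 2 left out (1.43, adjusted p = 0.00339). It did not pass when KO replicate 3 or 4 was left out (adjusted p = 0.0505 and 0.0754) or when wild-type replicate 1, 3 or 4 was left out (adjusted p = 0.0734, 0.0868 and 0.0921), although the log2 difference stayed between 1.26 and 1.46 in these 5 fits. It also did not pass when eBayes was run without a trend (adjusted p = 0.079).

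**Figure D1:**
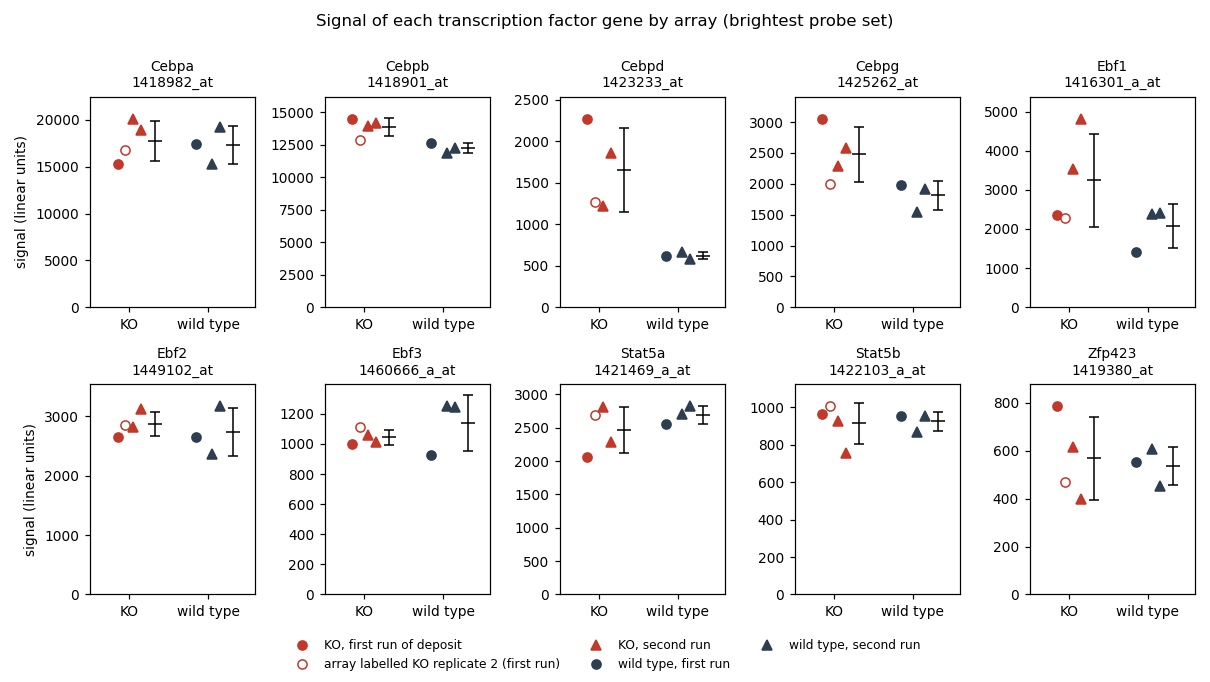
Signal in linear units (vertical axes, each from 0) of the brightest probe set of each of the 10 genes, with KO left of wild type. Points are arrays, circles for the first and triangles for the second run of deposit, the open circle is the array labelled KO replicate 2, and bars give the mean ± SD. Cebpd, from 1217.4 to 2269 in KO and from 581.4 to 661.7 in wild type, shows the widest gap between the groups.

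Cebpb encodes C/EBPβ, the partner of C/EBPδ in early differentiation. Its brighter probe set read 14469.8, 12862.8, 13960.4 and 14185.9 in KO, against 12666.4, 11859.6 and 12257.4 in wild type. Every KO array was above every wild-type array, by a small margin: the log2 difference was 0.18 ± 0.09 (1.13-fold) and did not pass (adjusted p = 0.372). This probe set had a within-group SD of 0.06 on the log2 scale, at percentile 1.1 of all probe sets tested, and a mean signal at percentile 99. The second Cebpb probe set differed by 0.13 and its groups overlapped.

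Cebpa encodes C/EBPα, which maintains the mature fat cell. It read 15286, 16761.7, 20092.7 and 18909.6 in KO and 17465.9, 15278.9 and 19271.9 in wild type, and the groups overlapped, with KO replicate 3 the highest of the 7 arrays. The log2 difference was 0.03 ± 0.12, with a 95% confidence interval of -0.24 to 0.30, so a change of the size seen for Cebpd lies outside the interval. The mean signal of its single probe set was at percentile 99.4.

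Cebpg encodes C/EBPγ, which lacks the activation domain of its relatives and pairs with other leucine zipper proteins. Its 3 probe sets did not behave alike. On 1425262_at the signals were 3049.5, 1993.5, 2296.1 and 2576 in KO and 1980.7, 1535.3 and 1920.2 in wild type (log2 difference 0.44 ± 0.15, adjusted p = 0.182). The groups were separate, with the array labelled KO replicate 2 lowest in KO and close to wild-type replicate 1.

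On 1451639_at the KO arrays read 1609.9, 833.3, 1437.4 and 1782.4 and the wild-type arrays 783.7, 901.2 and 915.7 (0.64 ± 0.22, adjusted p = 0.174). Here the array labelled KO replicate 2 lay inside the wild-type range and the other 3 KO arrays well above it. Both probe sets passed once it was left out, with log2 differences of 0.53 (adjusted p = 0.0484) and 0.87 (adjusted p = 0.00393). Within the second run of deposit alone 1451639_at passed (0.80, adjusted p = 0.0397, limma) and 1425262_at did not (0.49, adjusted p = 0.125, limma). The dimmest, 1425261_at, read 247.1 to 303.6 in KO and 273.6 to 338.1 in wild type, with a difference of -0.11 ± 0.15 (-0.12 without the array labelled KO replicate 2). All 3 are annotated to the same sequence record, and which transcript each one reads was not examined.

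Ebf1, which encodes a factor of the early fat cell lineage that is also needed for B cells, was higher in KO on all 5 of its probe sets by nearly the same amount, 1.42-fold to 1.55-fold, and 2 of the 5 passed. On 1448293_at the KO arrays read 2983.7, 2290.2, 2754.9 and 3269.6 and the wild-type arrays 1663.2, 1808.3 and 1916.7 (log2 difference 0.63 ± 0.13, adjusted p = 0.0444). On 1439789_at they read 2168.5, 1636.3, 1863.5 and 2219.5 in KO and 1173.3, 1257.1 and 1348.3 in wild type (0.63 ± 0.13, adjusted p = 0.0446). On both, all KO arrays were above all wild-type arrays, and the array labelled KO replicate 2 was the lowest of the KO arrays. The probe sets 1416301_a_at, 1448293_at and 1416302_at are annotated to the same sequence record, so the 5 are not independent.

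The brightest Ebf1 probe set, 1416301_a_at, read 2363.4, 2270.6, 3519.9 and 4807.8 in KO and 1416.3, 2373.3 and 2415.1 in wild type, and the fourth, 1416302_at, read 1451.5, 857, 1835.6 and 2370.1 in KO and 637.1, 1212.8 and 1212.3 in wild type. Their differences were 0.61 ± 0.26 (adjusted p = 0.279) and 0.62 ± 0.31 (adjusted p = 0.36). On these probe sets the arrays of the second run read higher than those of the first in both genotypes, so the groups overlapped across runs, but within each run every KO array lay above every wild-type array. With the run as a covariate 1416301_a_at passed (0.74, adjusted p = 0.0248) and 1416302_at did not (0.77, adjusted p = 0.0518). Within the second run alone 1416302_at passed (0.77, adjusted p = 0.0466, limma) and 1416301_a_at did not (0.77, adjusted p = 0.0512, limma). Their within-group SDs, 0.48 and 0.58 on the log2 scale, were above those of 1448293_at and 1439789_at (0.18 and 0.17). The fifth and dimmest, 1457441_at, read 121.1 to 165.8 in KO and 81.7 to 109.6 in wild type, without overlap (0.51 ± 0.21, adjusted p = 0.244).

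Like that of Cebpd, the Ebf1 call was lost when certain single arrays were left out. So were most calls over all probe sets, which numbered 431 with all arrays. They numbered 7 to 40 with any 1 array left out other than the array labelled KO replicate 2. Both called probe sets passed with the array labelled KO replicate 2 left out (0.73 and 0.71, adjusted p = 0.00492 and 0.00701) and with the run as a covariate (0.67 and 0.65, adjusted p = 0.0317 and 0.0368). Within the second run alone 1448293_at passed (0.68, adjusted p = 0.0423) and 1439789_at did not (0.63, adjusted p = 0.0595). Neither passed when any other array was left out: for 1448293_at the adjusted p was then 0.109, 0.113 and 0.125 without KO replicates 1, 3 and 4 and 0.158, 0.143 and 0.129 without wild-type replicates 1, 3 and 4. The log2 difference of 1448293_at stayed between 0.56 and 0.73 over all 7 such fits. Both calls were also lost under array median scaling (adjusted p = 0.0587 and 0.0614), without the filter on low signal (0.0742 and 0.0733) and without a trend in eBayes (0.127 and 0.124), and that of 1439789_at under quantile normalization (0.0508).

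**Figure D2:**
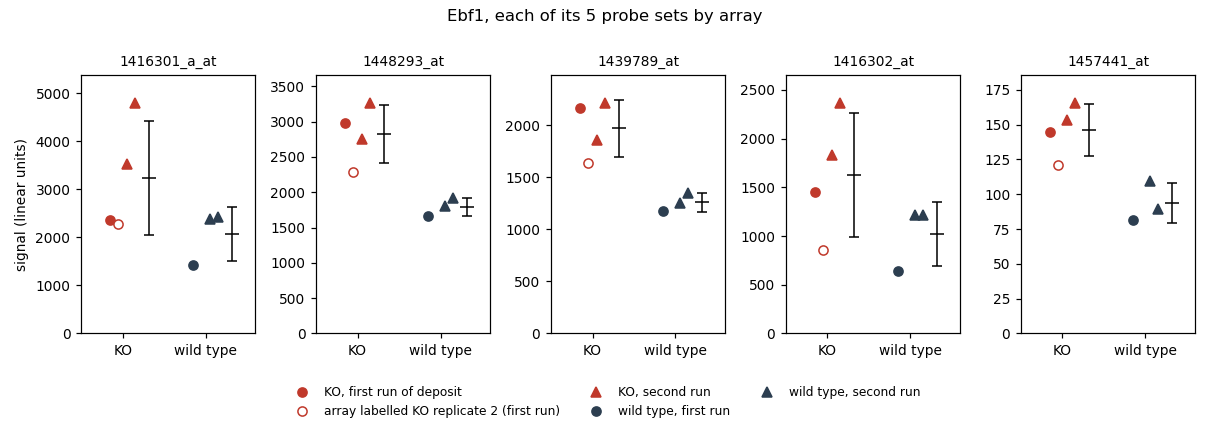
Signal in linear units (vertical axes, each from 0) of the 5 Ebf1 probe sets, with KO left of wild type. Circles are arrays of the first and triangles of the second run of deposit, the open circle is the array labelled KO replicate 2, and bars give the mean ± SD. On 1416301_a_at and 1416302_at the runs separate within each genotype, while on 1448293_at and 1439789_at the groups stand apart without regard to run.

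Promoter sequences, 250 bases before to 50 bases after a gene start, came from RefSeq (GRCm38.p6) for 8 of the 10 genes, 12 promoters in all. Cebpd and Ebf2 had no entry among these promoters. Those of Ebf1 are shown because Ebf1 is the gene with called probe sets that has entries, and it has 2 annotated starts, at chr11:44617850-44618149 and chr11:44619978-44620277, both on the plus strand. That of Cebpg (chr7:35056517-35056816, minus strand) is shown because 2 of its probe sets passed once the array labelled KO replicate 2 was left out. Capitals mark a match, on either strand, to one of 5 short motifs searched.
Ebf1 first start: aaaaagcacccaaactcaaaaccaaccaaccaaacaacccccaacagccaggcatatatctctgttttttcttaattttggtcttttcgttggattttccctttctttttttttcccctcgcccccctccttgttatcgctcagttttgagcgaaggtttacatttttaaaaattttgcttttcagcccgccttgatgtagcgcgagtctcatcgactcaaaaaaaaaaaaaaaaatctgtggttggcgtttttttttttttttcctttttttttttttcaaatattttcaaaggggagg
Ebf1 second start: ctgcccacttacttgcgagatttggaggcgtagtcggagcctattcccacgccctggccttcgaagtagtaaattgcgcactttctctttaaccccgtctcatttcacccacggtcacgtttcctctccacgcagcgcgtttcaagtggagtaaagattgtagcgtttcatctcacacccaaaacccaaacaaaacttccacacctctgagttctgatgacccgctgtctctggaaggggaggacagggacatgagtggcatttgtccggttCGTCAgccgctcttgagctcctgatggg
Cebpg: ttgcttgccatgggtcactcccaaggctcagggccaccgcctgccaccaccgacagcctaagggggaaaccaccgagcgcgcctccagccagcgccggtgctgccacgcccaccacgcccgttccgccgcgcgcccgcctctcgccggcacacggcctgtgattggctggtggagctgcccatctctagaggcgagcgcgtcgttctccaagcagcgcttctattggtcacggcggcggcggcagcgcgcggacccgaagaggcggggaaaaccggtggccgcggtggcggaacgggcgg

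The 2 Ebf1 starts differ in base composition, with 36.7% G and C at the first and 53% at the second, against 71.7% at the Cebpg start. The first Ebf1 promoter and the Cebpg promoter held none of the motifs, and the second Ebf1 promoter held 1 match to the CREB core site TGACG, on the minus strand 22 bases after the start. Over the 12 member promoters this site occurred in 4 (those of Cebpb, Ebf1, Ebf3 and Stat5a), and in 20.8% of all 32851 promoters of the same length. The EBF motif CCCNNGGG occurred in 5 of the 12 (Cebpb, Ebf3, Stat5a, Stat5b and Zfp423), against 13.7% of all. Its fixed bases are all G or C, and the promoters that held it had 57.7% to 82.7% G and C. The share over all promoters was not matched for base composition, so the counts do not show an excess of EBF sites. The C/EBP motif TTGCNNAA occurred in 1 of the 12, an upstream start of Zfp423 with 2 matches, against 10.8% of all. The STAT motif TTCNNNGAA (8.3% of all) and the full glucocorticoid receptor motif, AGAACA and TGTTCT with 3 bases between them (0.00913% of all), occurred in 0 of the 12. The latter is so rare, in 3 of 32851 promoters, that its absence here tells nothing, and Cebpd had no promoter to search. These are matches of letters in a short window and do not show binding.

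Ebf2, the EBF factor that selects brown fat genes, differed little between the groups and did not pass on any probe set. Its brightest probe set read 2645.7, 2855.7, 2828.5 and 3130.8 in KO and 2647.9, 2374 and 3169.8 in wild type (log2 difference 0.08 ± 0.12, 95% interval -0.19 to 0.34). The other probe sets differed by 0.14 and 0.23, and on all 3 the groups overlapped.

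Ebf3, a close relative of Ebf1 and Ebf2, was lower in KO on all 3 of its probe sets, and none passed. The brightest read 998.6, 1109, 1056.9 and 1010.2 in KO and 927.4, 1249.9 and 1246.4 in wild type (-0.11 ± 0.13, adjusted p = 0.74). The other pair differed by -0.28 ± 0.14 (1452751_at, adjusted p = 0.339) and -0.46 ± 0.18 (1428349_s_at, adjusted p = 0.227). The suffix of 1428349_s_at marks, in the maker's naming, a probe set that can match more than 1 transcript, so its signal may not be of Ebf3 alone.

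Stat5a and Stat5b encode near-identical factors and are direct neighbours in the genome, with no annotated gene between them. The brighter Stat5a probe set read 2066.1, 2687.6, 2810.5 and 2289.1 in KO and 2551.7, 2705.6 and 2821.8 in wild type (-0.14 ± 0.12, adjusted p = 0.656), with overlap. The dimmer, 1450259_a_at, read 1095.2, 823.5, 1105.7 and 889.1 in KO and 1137.3, 1356.6 and 1600 in wild type. Here all KO arrays were below all wild-type arrays, at a difference of -0.47 ± 0.15 (1.38-fold lower) that did not pass (adjusted p = 0.157). Both are annotated to the same sequence record.

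The brighter Stat5b probe set read 965.6, 1006.4, 927.6 and 758.6 in KO and 952.2, 868.4 and 955 in wild type (-0.02 ± 0.13, 95% interval -0.31 to 0.26). The dimmer read 329.5 to 642.3 in KO and 401.6 to 727.5 in wild type (-0.19 ± 0.24). Neither separated the groups.

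Zfp423, the zinc finger factor of committed precursors, read 785.7, 468.9, 617.6 and 398.6 on its single probe set in KO and 552.9, 607.6 and 451.4 in wild type. The log2 difference was 0.04 ± 0.21 with a 95% interval of -0.43 to 0.51, and its within-group SD of 0.34 exceeded the median of all tested probe sets (0.23). Changes within this interval remain possible. The interval is not a limit of detection, since a somewhat larger difference might also not have passed.

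**Figure D3:**
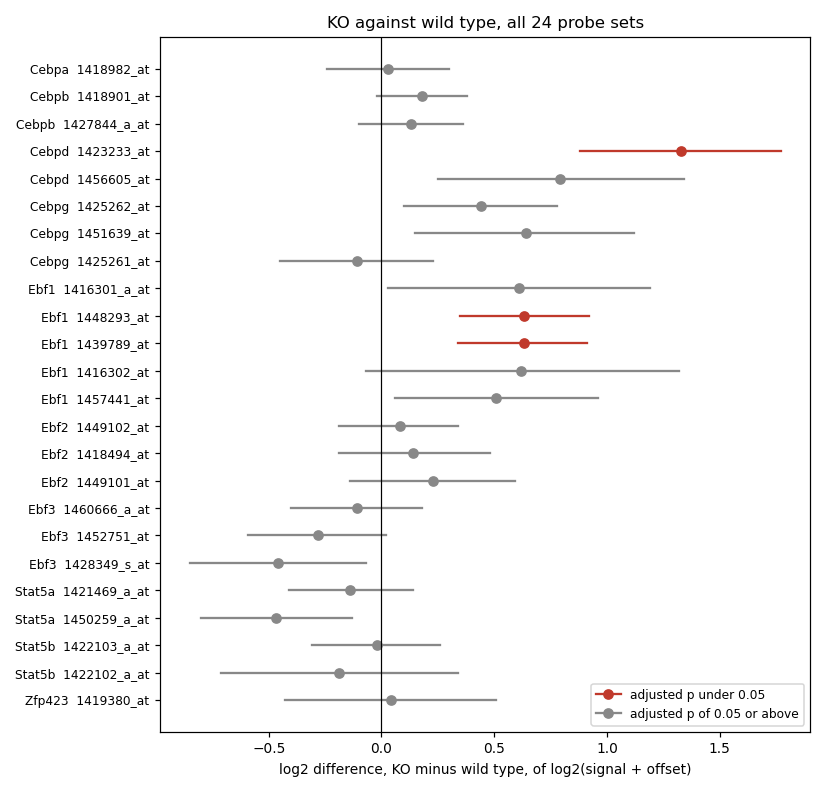
Log2 difference, KO minus wild type, of log2(signal + 30.6) for each of the 24 probe sets (horizontal axis), with its 95% confidence interval. Red marks the 3 probe sets with an adjusted p under 0.05, 1 of Cebpd at 1.33 and 2 of Ebf1 at 0.63 each.

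Over the set, 3 of 24 probe sets passed, all higher in KO, and they belong to 2 genes. Of all 27022 tested probe sets 1.59% passed in either direction, 0.951% higher and 0.644% lower. The arrays of the 2 genotypes were fully separate in 8 of the 24, 7 with KO above and 1 with KO below, against 14.7% of all tested probe sets in either direction, 7.48% with KO above and 7.25% with KO below. The 8 include 2 of Cebpd and 3 of Ebf1, so they are not independent. The median log2 difference was 0.14 over the members and 0 over all tested probe sets. At an unadjusted p under 0.05 there were 10 of 24, against 16.5% of all. With the array labelled KO replicate 2 left out, 5 of the 24 passed, again all higher (1 of Cebpd, 2 of Cebpg and 2 of Ebf1), against 7.35% of all probe sets (3.14% higher and 4.21% lower). Leaving out this array, singled out in part by its likeness to wild type, raised the calls over all probe sets from 1.59% to 7.35%. Calls made without it, here and for the lists and markers, are to be read beside that share. With the run of deposit as a covariate 4 of the 24 passed, all of Cebpd and Ebf1, against 2.34% of all. None of the 24 passed when KO replicate 3 or 4 or any wild-type array was left out (7 or 8 of them then had an unadjusted limma p under 0.05). With KO replicate 1 left out 1 passed. Over all 27022 probe sets only 7 to 25 passed in the former fits and 40 in the latter, so few calls were left anywhere. Without KO replicate 3 or 4 or wild-type replicate 1 or 3, 3553 to 3688 of the 27022 had an unadjusted limma p under 0.05.

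Differences between members were tested as ratios within an array, in which the scaling of a whole array largely cancels. Each ratio used the brightest probe set of its genes. That of Ebf1 to Ebf2 thus used 1416301_a_at, which was not called and shifted with the run, and the called Ebf1 probe sets entered no ratio. Only the difference of a ratio between groups can be read, since the levels of separate probe sets are not on one scale. The log2 ratio of Cebpd to Cebpa averaged -3.44 ± 0.55 in KO and -4.73 ± 0.26 in wild type (SD), 1.29 higher in KO, and the groups did not overlap. With 4 against 3 arrays the smallest two-sided p of the exact permutation test is 0.0571, which this ratio had (adjusted p = 0.229 over the 4 ratios tested, exact permutation test). The ratio of Cebpb to Cebpa was 0.14 higher in KO, that of Ebf1 to Ebf2 0.54 higher and that of Stat5a to Stat5b -0.11, with raw p of 0.4, 0.229 and 0.514 and adjusted p of 0.514, 0.457 and 0.514 (exact permutation test). For Ebf1 to Ebf2 the log2 ratios were -0.16 and -0.33 in KO against -0.89 in wild type within the first run of deposit, and 0.31 and 0.61 in KO against 0 and -0.39 in wild type within the second, so every KO array was above every wild-type array of its run. Since no ratio could reach 0.05 with these arrays, the test decides nothing about whether the members of a pair differ.

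The genes whose signal followed Cebpd most closely over the 7 arrays, among the brightest probe sets of all genes, were Slc8b1, a mitochondrial sodium-calcium exchanger (Pearson r = 0.996), Atf6, a sensor of endoplasmic reticulum stress (0.994), and the kinase gene Map3k6 (0.989). Slc8b1 read 1119.3, 781.3, 767.8 and 1058.7 in KO and 452.5, 455.9 and 451.2 in wild type, and it rose (log2 difference 0.97, adjusted p = 0.0228), as did Map3k6 (1.32, adjusted p = 0.0237), while Atf6 did not pass (0.42, adjusted p = 0.129). For the brightest Ebf1 probe set they were Dennd4c (0.982), Pias1 (0.977) and Zbtb12 (0.975), with log2 differences of 0.21, 0.33 and 0.26 that did not pass. With 7 arrays and 13102 genes, correlations of this size are to be read as a description, and the arrays of a genotype or run share what sets them apart.

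Cebpd is known as a gene induced by glucocorticoids. Of the 8 other listed genes of this kind, all tested, 5 rose by the brightest probe set (Fkbp5, Per1, Tsc22d3, Zbtb16 and Cdkn1a) and 0 fell. All 8 differences were positive, with a median log2 difference of 1.15 against -0.01 over the 13102 genes tested, of which 1.85% passed, 1.14% as higher and 0.71% as lower. The list was drawn up with earlier results of these arrays known. Fkbp5, a chaperone of the receptor, read 3523.3, 1120.3, 2117.8 and 2232.4 in KO and 587, 575.1 and 563.5 in wild type. KO replicate 1 was the highest, as for Cebpd, and the array labelled KO replicate 2 was the lowest of the KO arrays, whereas for Cebpd KO replicate 3 was lower still. Klf9 was higher without overlap on its brightest probe set and did not pass there (0.83, adjusted p = 0.0783), while 1 of its other probe sets rose. The brightest passed with the array labelled KO replicate 2 left out (1.05, adjusted p = 0.000808). Sgk1 and Dusp1 differed by 0.43 (adjusted p = 0.48) and 0.10 (adjusted p = 0.84), with overlap. Over all 7 gene lists, 8 of 78 tested genes passed. When KO replicate 3 or 4 or any wild-type array was left out 0 did (16 to 24 at an unadjusted limma p under 0.05). With KO replicate 1 left out 2 did. Over all 27022 tested probe sets only 7 to 25 passed in the former fits and 40 in the latter. Nr3c1, the glucocorticoid receptor itself, read 1821, 2105.1, 2115.9 and 2018.2 in KO and 2241.6, 1998.4 and 2233.9 in wild type (-0.10 ± 0.11, adjusted p = 0.719). Whether glucocorticoids had a part in the rise of Cebpd was not tested.

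**Figure D4:**
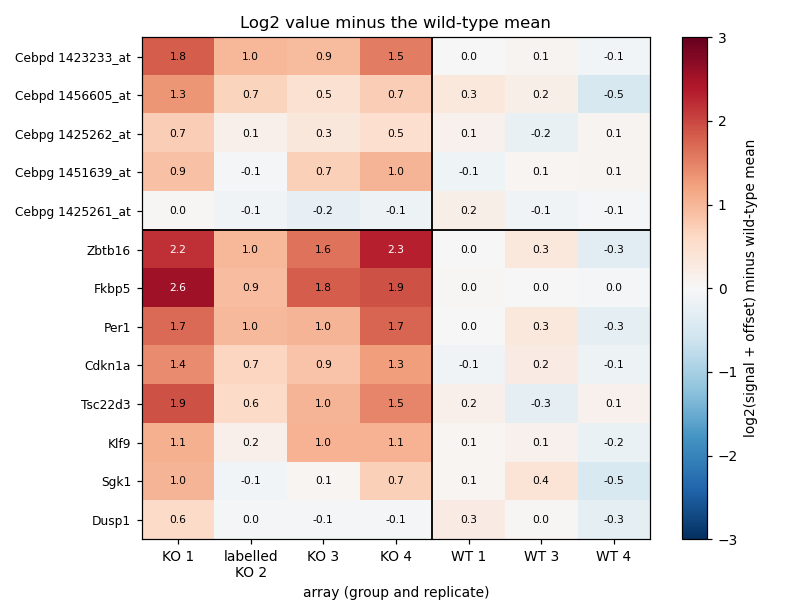
Log2(signal + 30.6) of each array minus the wild-type mean, for the 2 Cebpd and 3 Cebpg probe sets (upper rows) and the 8 glucocorticoid-induced genes (lower rows), with KO arrays left of wild-type arrays. Red is higher and blue lower than the wild-type mean. On every KO array both Cebpd probe sets and 6 of the lower genes are above all wild-type arrays, and the array labelled KO replicate 2 is often the palest KO column.

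Among early adipogenic regulators other than the members, 1 of 9 tested genes rose and 0 fell (median -0.03). That gene was Klf15, a partner of C/EBP factors in fat cell differentiation, which read 1824.1, 489.5, 1329.5 and 1651.2 in KO and 253.7, 235.2 and 137.6 in wild type (2.38 ± 0.38, adjusted p = 0.0228). All KO arrays were higher, with the array labelled KO replicate 2 far below the other 3. Creb1, which activates Cebpb, differed by -0.25 and Klf5, which acts after C/EBPβ and C/EBPδ, by 0.23, and neither passed.

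Of the relatives and regulators of C/EBP proteins 0 of 9 rose and 1 fell (median 0.16). Trib1, a pseudokinase that directs C/EBPα to degradation, read 64.1, 202.1, 197.2 and 224.9 in KO and 561.4, 672.8 and 497.5 in wild type on its brightest probe set (-1.67 ± 0.31, adjusted p = 0.0332). Its relative Trib2 read 551.9, 1001.9, 726.3 and 598.3 in KO and 1118.2, 1401.1 and 1323.7 in wild type, without overlap, and missed the threshold (-0.84 ± 0.19, adjusted p = 0.0574). It fell once the array labelled KO replicate 2 was left out (-1, adjusted p = 0.00384), while Tef rose, a leucine zipper factor of the clock output (0.65, adjusted p = 0.0312, and 0.58 with adjusted p = 0.0866 over all arrays). Hlf, another factor of that family, differed by -0.38 (adjusted p = 0.327). The Trib2 probe set, 1426640_s_at, has the suffix explained for Ebf3, so its signal may not be of Trib2 alone.

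Downstream of the relay, 0 of 13 tested genes among PPARγ and the genes of the mature fat cell passed on their brightest probe set (median 0.05). At an unadjusted limma p under 0.05 there were 5 of 13, against 16.5% of all tested probe sets. Of these 13 genes 1, Fabp4, rose on another probe set. Pparg read 5026.9, 4944.2, 5812.5 and 5263.6 in KO and 4390.6, 5358.5 and 6057.9 in wild type (0.01 ± 0.12), and Adipoq, the gene of adiponectin, differed by 0.07 ± 0.12. Lep, the gene of leptin, was lower in KO without overlap (322.8, 579.8, 503.3 and 193.2 in KO, against 694.4, 746.4 and 742.6 in wild type), and missed the threshold (-0.92 ± 0.29, adjusted p = 0.141). Rxra, the partner of PPARγ, was higher without overlap (0.49 ± 0.13, adjusted p = 0.085). Retn, the gene of resistin, differed by -0.49 (adjusted p = 0.18) and Pck1, which makes the enzyme PEPCK, by 0.26 (adjusted p = 0.256). With the array labelled KO replicate 2 left out, 1 gene of this list rose (Rxra, 0.55, adjusted p = 0.0256) and 2 fell (Lep, -1.12, adjusted p = 0.0307, and Retn, -0.67, adjusted p = 0.00471). Of all tested probe sets 3.14% rose and 4.21% fell without that array.

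Brown fat partners and targets of EBF2 had 0 of 12 genes that passed (median 0.09), and again 0 with the array labelled KO replicate 2 left out. The smallest p belonged to Tle3, a corepressor of the brown fat programme (0.47 ± 0.17, adjusted p = 0.197). Cox7a1, a respiratory chain subunit, differed by -0.22, the nuclear receptor gene Ppara by 0.35 and Ehmt1, a PRDM16 partner, by 0.22. Ucp1 read 29168.4, 26886.6, 32388.3 and 37576.9 in KO and 29963.3, 29264 and 33706 in wild type (0.02 ± 0.12). Of the partners of Zfp423 and EBF and the BMP pathway 0 of 11 passed (median 0.06), with Smad4 nearest to the threshold (0.40 ± 0.10, adjusted p = 0.0865). Smad4 rose when the array labelled KO replicate 2 was left out (0.41, adjusted p = 0.0481). Smad1, Smad5 and Bmpr2 differed by 0.25, 0.17 and -0.17.

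In JAK-STAT5 signalling 1 of 16 tested genes rose and 0 fell by the brightest probe set (median -0.11). Ptpn11, the phosphatase SHP2 that acts downstream of cytokine receptors, read 4682.5, 3803.3, 4191.1 and 4702.3 in KO and 2919, 3136.6 and 2837.4 in wild type (0.54 ± 0.11, adjusted p = 0.0403). Igf1, a target of STAT5, read 1346.5, 4523.5, 2173.5 and 2053 in KO and 5097.6, 5137.1 and 4714.4 in wild type. All KO arrays were lower, the array labelled KO replicate 2 only slightly so, and the difference did not pass on this probe set (-1.11 ± 0.30, adjusted p = 0.0979), while it did on 1 of the other probe sets of Igf1. With the array labelled KO replicate 2 left out, Ptpn11 and Bcl6, a repressor that opposes STAT5, rose (0.60 and 0.56, adjusted p = 0.0074 and 0.0485), and Igf1 and the growth hormone receptor gene Ghr fell (-1.44 and -0.57, adjusted p = 0.00136 and 0.0148). Without that array 3.14% of all tested probe sets rose and 4.21% fell. The Ghr probe set, 1417962_s_at, has the suffix explained for Ebf3, so its signal may not be of Ghr alone.

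Markers of other cell types of the tissue were measured beside the members. Neutrophil markers, of interest beside Cebpd and Cebpg, were higher on 8 of 8 tested genes (median 0.60; 1 rose), with a summed signal of 6437 to 11380 in KO and 4525 to 6952 in wild type. The 1 that rose was Chil3 (2.09, adjusted p = 0.034, limma). Elane, below the filter on low signal and not tested, read 25.1 to 137.3 in KO and 30.3 to 111.9 in wild type. With the array labelled KO replicate 2 left out, 3 of the 8 tested neutrophil markers rose, against 3.14% of all tested probe sets. Markers of fibroblasts and fat cell precursors, of interest beside the EBF genes and Zfp423, were lower on 8 of 9 (median -0.33; 0 passed), with sums of 34180 to 54130 in KO and 51180 to 59520 in wild type. The highest of these KO sums was that of the array labelled KO replicate 2, the other 3 reaching at most 49900. With that array left out 3 of the 9 fell, against 4.21% of all tested probe sets. B cell markers, of interest beside Ebf1, were lower on 4 of 5 (median -0.32; 0 passed), with sums of 892.5 to 1146 in KO and 1025 to 1236 in wild type. Below the filter on low signal and not tested were Vpreb1, at 7.2 to 62.3 in KO and 7.2 to 13 in wild type, and Cd79b, at 31.2 to 110.9 in KO and 58.1 to 74.7 in wild type. Macrophage markers were lower on 6 of 8 (median -0.05; sums of 7051 to 12440 in KO and 9818 to 10800 in wild type), and endothelial markers on 5 of 6 (median -0.32; 7478 to 8283 in KO and 8408 to 10600 in wild type). Skeletal muscle markers (3 of 9 higher, median -0.03) summed to 25690 to 45960 in KO and 31190 to 47930 in wild type, and the 2 tested erythroid markers to 3379 to 5098 in KO and 3250 to 5674 in wild type. The 7 tested fat cell markers summed to 143600 to 186100 in KO and 147800 to 174400 in wild type (median 0.02). Their part in the differences of the members was not tested.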

How the data were processed

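Brown fat RNA from 4 KO and 3 wild-type samples was measured on 1 array each. The authors deposited an intensity for each probe set on each array, on a linear scale. Per the submitters' processing notes, GCOS 1.2 was used. The scaling of the arrays is not stated there, but their trimmed means were alike (500 on each), so the scaling was kept. Detection calls were not used here. Of 45101 probe sets 64 controls were left out. The probe annotation gave 1 symbol for 34945, several for 932 and none for 9160, and symbols were updated through the RefSeq gene table (GRCm38.p6).

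An offset of 30.6, the 20th percentile of the signals, was added before log2 was taken, so that fold changes of dim probe sets are understated. Probe sets under the 40th percentile of mean log2 value over all arrays were left out. KO and wild type were compared in R 4.3.3 by limma 3.58.1, using lmFit and eBayes (trend on), by two-sided tests and Benjamini-Hochberg adjustment over all 27022 probe sets and a threshold of 0.05. No covariate was used. The fit was tested on simulated data. List genes are given by their brightest probe set. Ranks of signal, percentiles and summed marker signals set probe sets of different response side by side, so they describe the arrays, and a sum is led by its brightest genes. Since no label says that replicates are separate animals, the p-values cover only the spread among these samples, which may be technical, and the number of arrays limits the precision.

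Named genes were all members, the 4 genes of smallest p in each list and any that passed, Pparg, Ucp1, Adipoq and Nr3c1, and the 3 genes most like Cebpd and most like Ebf1 by Pearson r over the arrays. Beyond this rule, the whole list of glucocorticoid-induced genes, Fabp4, Xist and some cell type markers were named. The members and lists were chosen with earlier results of these data known. The alternatives were other scalings, offsets, filters and variance models, array weights, the replicate number as a block, the run of deposit, all probe sets of a gene and leaving out each array.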

Additional observations from a re-analysis of the deposited data

Results flagged for a closer look

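Of 66 signals and ratios checked, 3 had 1 KO array far from the other KO arrays, a gap that chance gives in about 1 of 20 groups. Klf5 (1451739_at) read 231.6 on the array labelled KO replicate 2, against 186 to 193.2 on the other KO arrays. Bmpr2 (1434310_at), a BMP receptor gene, read 1967 on the array labelled KO replicate 2, against 1367 to 1422 on the others. Smad4 (1422487_at) read 2793 on the array of KO replicate 1, against 2453 to 2488 on the others. None of the 24 member probe sets was among them.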

How the results depend on the processing

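The count of calls over all probe sets was 431, over the members 3 and over the listed pathway genes 8 of 78. Array median scaling gave 235 and 1 for the first and second counts, no filter gave 100, 1 and 0 (5503, 10 and 21 at an unadjusted p under 0.05), and eBayes without a trend gave 6, 0 and 0 (4096, 9 and 18 unadjusted). Array weights gave 1312 over all probe sets and 14 listed genes, and the second run of deposit alone 726 over all probe sets. Leaving out 1 array gave 7 to 1986 over all probe sets, 0 to 5 members and 0 to 18 listed genes, the highest each time without the array labelled KO replicate 2. The 4 within-array ratios kept their sign wherever they were recomputed.

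With the replicate number as a block, 2183 probe sets, 8 members and 18 listed genes passed. The array labelled KO replicate 2 has no partner and adds nothing to that fit, and leaving it out with no block gave 1986, 5 and 18. Arrays of the same number, replicates 1, 3 and 4, deviated from their group means with correlations of 0.06, 0.15 and 0.11. For each of these KO arrays that was its highest correlation with a wild-type array. The correlations were small, however, and wild-type replicate 1 correlated best with the array labelled KO replicate 2 (0.18), so the numbers were not taken to pair the samples.

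Some members turned sign, none of them past the threshold. Leaving out 1 array at a time gave Cebpa -0.05 to 0.11 (-0.03 without KO replicate 3, -0.05 without wild-type replicate 3), and quantile normalization gave -0.05. Ebf2 (1449102_at) ranged over -0.02 to 0.19, lowest without wild-type replicate 3. Stat5b ranged over -0.07 to 0.06 on 1422103_a_at (0.06 without KO replicate 4, 0 without wild-type replicate 4) and over -0.36 to 0.05 on 1422102_a_at (-0.19 over all arrays), highest without wild-type replicate 4. Zfp423 ranged over -0.12 to 0.19 (-0.12 and -0.01 without KO replicates 1 and 3, -0.07 without wild-type replicate 4) and was at -0.07 within the second run. The cause was not tested. The dimmest member probe set, Ebf1 1457441_at, read 121.1 to 165.8 in KO and 81.7 to 109.6 in wild type, closest to the offset of 30.6, so its fold is the most understated.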
